A study of Mus musculus with 24 samples.

Results

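The genes described here encode the heat shock proteins and their co-chaperones. They were chosen by gene symbol from the platform annotation: every symbol starting with Hspa, Hspb, Hspd, Hspe, Hsph, Dnaja, Dnajb, Dnajc, Hsf or Bag and then a digit, or starting with Hsp90. Of 80 such genes, 62 were detected on all 3 arrays of at least 1 group, out of 12226 detected genes in all, and the brightest probe stood for each gene. Of these 62 members, 53 were detected on all 24 arrays. The 18 genes not detected included Hsf1, which encodes the main transcription factor of the heat shock response, and Hspa13, Hspa14, Hspa1l and Hspb7. No probe in the platform annotation carried the name of Hsp90ab1, the constitutive cytosolic HSP90. Hsph1, an HSP70 nucleotide exchange factor, stood there under an older symbol outside the rule, and its values are given only as a neighbour of the members.

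RNA came from cells of the aorta-gonad-mesonephros (AGM), the region of the mouse embryo around the dorsal aorta where blood stem cells arise, and was hybridised to Illumina bead arrays. The tissue, taken on embryonic day 10.5 from mice of the C57BL/6J strain, was dissociated, and the cells settled in microfluidic channels before medium was moved over them. Each array measured the pooled RNA of 6 channels, and the labels do not say whether the 3 arrays of a group came from separate dissections, so the spread behind the p-values is that between these arrays and may be technical. There were 8 groups of 3 arrays. Flow cultures (WSS, for wall shear stress) received 5 dyne per cm2 and were set against static cultures, which received 1e-04 dyne per cm2. Either state was given 10 uM indomethacin, an inhibitor of the cyclooxygenases that make prostaglandins, or vehicle. Both were collected after 36 h or after 6 h of flow.

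Cells of the AGM are a mixture, and the marker lists fixed for its cell types were mostly present. All 5 endothelial, 5 mesenchymal, 5 macrophage and 5 muscle markers were detected, 4 of 5 blood progenitor markers (not Myb), and the 4 erythroid and 4 neural markers reported here, but 2 of 5 urogenital markers (not Wt1, Pax2 or Epcam). The arrays detected 18681 to 22156 of 45281 probes, with mean signals of 370 to 610.4, and arrays of a group correlated at 0.980 to 0.993. Of the 12 arrays taken at 6 h, array 2 of the WSS indomethacin group stood apart in its erythroid transcripts. Their summed intensity was 3351 there and at least 28483 on each of the other 11. Without that array, results at 6 h in indomethacin are also given for Hspa1a, Hspa1b, the count of members and the named calls then lost. Counts of classes, partners and markers at 6 h in indomethacin are given only with it. In bulk RNA, fewer cells of a type and less RNA per cell cannot be told apart.

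Heat shock proteins bind unfolded protein chains and help them fold, or hand them on for degradation. HSP70 proteins work in cycles driven by ATP: J-domain proteins (the Dnaj genes) bring the client and trigger hydrolysis, and nucleotide exchange factors such as the BAG proteins release it. HSP90 completes the folding of kinases and receptors, small heat shock proteins hold clients back from aggregation, and separate sets serve the endoplasmic reticulum (ER) and the mitochondria. In stressed cells heat shock factor 1 binds heat shock elements in promoters and switches on the inducible cytosolic genes, while a load of unfolded protein in the ER acts through ER stress elements. Hspa1a and Hspa1b, the inducible HSP70 genes, are the classic reporters of the heat shock response. By textbook role the 62 members were divided into 10 inducible, 12 ER, 10 mitochondrial, 3 small heat shock proteins of muscle, 1 heat shock factor (Hsf2) and 26 others, most of them constitutive cytosolic proteins.

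Promoters of members named below are shown because these elements are how heat shock and ER stress are known to reach such genes. RefSeq promoter windows of build GRCm38.p6, from 250 bases before to 50 bases after the start of the gene, were at hand for 51 of the 62 members. The heat shock element core was searched as GAANNTTC or TTCNNGAA, each of which reads the same on both strands; where units stand in a row the 2 forms overlap. It was found for 7 of the 9 inducible members with a window (77.8%), 14 of the 51 members (27.5%) and 4587 of all 27025 genes in the table (17%). The ER stress element, CCAAT and CCACG separated by 9 bases on either strand, was found for 3 of the 11 ER members with a window (Hspa5, Hsp90b1 and Dnajc3) and for 37 of the 27025 genes (0.137%). Below, the 250 bases before the start are printed 5′ to 3′ on the strand of the gene, with the matched element in capitals. Hspa1a and Hspa1b carry 1 heat shock element each, beginning 104 bases before the start; their windows match at 247 of 250 bases (98.8%), and the transcripts are near-identical too, so the arrays may not tell the pair apart.
Hspa1a, chr17:34972157-34972406, minus strand: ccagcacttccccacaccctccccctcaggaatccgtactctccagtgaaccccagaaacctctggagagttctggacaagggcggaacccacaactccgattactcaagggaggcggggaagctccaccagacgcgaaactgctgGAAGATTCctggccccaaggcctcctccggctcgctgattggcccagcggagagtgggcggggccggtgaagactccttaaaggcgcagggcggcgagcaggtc
Hspa1b, chr17:34959239-34959488, minus strand: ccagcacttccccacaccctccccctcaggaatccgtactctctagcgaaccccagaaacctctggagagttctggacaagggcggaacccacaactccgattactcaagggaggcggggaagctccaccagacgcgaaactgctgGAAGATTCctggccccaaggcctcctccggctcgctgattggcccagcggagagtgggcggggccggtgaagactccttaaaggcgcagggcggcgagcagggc
Hspb1, chr5:135887669-135887918, plus strand: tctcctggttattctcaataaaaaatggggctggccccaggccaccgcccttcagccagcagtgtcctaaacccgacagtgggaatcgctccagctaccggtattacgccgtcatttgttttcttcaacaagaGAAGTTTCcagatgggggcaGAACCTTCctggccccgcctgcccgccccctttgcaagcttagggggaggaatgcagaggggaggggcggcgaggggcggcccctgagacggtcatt
Dnajb6, chr5:29735648-29735897, plus strand: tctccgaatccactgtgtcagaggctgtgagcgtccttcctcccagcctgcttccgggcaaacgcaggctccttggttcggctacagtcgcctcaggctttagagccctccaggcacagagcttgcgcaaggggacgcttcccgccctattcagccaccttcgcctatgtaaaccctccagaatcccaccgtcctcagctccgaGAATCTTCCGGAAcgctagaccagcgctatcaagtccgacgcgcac
Hspe1, chr1:55087898-55088147, plus strand: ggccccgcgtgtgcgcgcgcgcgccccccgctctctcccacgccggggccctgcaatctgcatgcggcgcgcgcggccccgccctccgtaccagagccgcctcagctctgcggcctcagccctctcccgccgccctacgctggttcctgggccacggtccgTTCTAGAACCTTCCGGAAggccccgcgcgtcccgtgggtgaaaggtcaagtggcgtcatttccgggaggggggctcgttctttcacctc
Hspa5, chr2:34771840-34772089, plus strand: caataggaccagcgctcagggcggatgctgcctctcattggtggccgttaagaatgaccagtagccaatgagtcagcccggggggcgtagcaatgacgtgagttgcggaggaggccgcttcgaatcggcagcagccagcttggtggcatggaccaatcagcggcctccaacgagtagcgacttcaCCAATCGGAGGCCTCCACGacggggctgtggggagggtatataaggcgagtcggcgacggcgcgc
The Hspb1 window holds 2 heat shock elements and that of Dnajb6 holds 2 that overlap. Hspe1 lies head to head with Hspd1, and their windows share 285 bases with 3 overlapping matches. A match is a description of these letters and not evidence of binding.

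The first question was which members responded to 6 h of flow. In vehicle, wall shear stress lowered Hspa1a 7.46-fold and Hspa1b 4.57-fold, the largest changes of any of the 62 members, while no other inducible member passed the test. Of all 62 members 9 rose and 7 fell at an adjusted p under 0.05 (limma, Benjamini-Hochberg over all 12226 genes), against a background of 15.1% of all genes that rose and 14.3% that fell, so the count of members was no higher than that of genes at large. The members that rose were led by the J-domain genes Dnajb6, Dnajb11, Dnajc15 and Dnajc12 and the small heat shock gene Hspb2. The median log2 change of the 62 members was 0.11, against 0.01 over all genes. WSS arrays were brighter before normalization, with a mean signal of 566.5 against 424.4 in static culture at 6 h in vehicle. Arrays were also scaled to a common median in place of quantile normalization. The median of all genes then moved to 0.24 and the split of members became 26 up and 3 down. Of all 12226 genes 3551 then rose and 767 fell, so under this scaling a larger share of members than of all genes rose. The share of all genes' calls that were upward was then 82.2%, against 51.2%, and likewise 88.8% against 53.1% at 6 h in indomethacin, 87.1% against 49.7% at 36 h in vehicle and 66.9% against 46.6% at 36 h in indomethacin. The members' median then stood 0.13 above that of all genes, against 0.10 above it in the quantile-normalized values, and 40 and 39 of the 62 members lay above it. Hspa1a fell by 2.57 and Hspa1b by 1.94 on the log2 scale with median scaling.

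Hspa1a had log2 intensities of 6.97, 6.70 and 7.41 on the WSS vehicle arrays at 6 h, against 10.55, 9.70 and 9.54 on the static vehicle arrays. Hspa1b had 6.19, 5.90 and 6.69 under WSS and 9.14, 7.96 and 8.26 in static culture. Every WSS array lay below every static array for both genes. The log2 difference was -2.90 ± 0.67 for Hspa1a (SE, 3 arrays a group, adjusted p = 0.0028 in limma) and -2.19 ± 0.46 for Hspa1b (adjusted p = 0.0013). The other 2 detected probes of Hspa1a gave -2.57 and -2.13 and the other probe of Hspa1b gave -1.77, and all 3 passed.

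The same pair fell in indomethacin at 6 h. Hspa1a had 7.09, 5.60 and 7.26 on the WSS arrays, against 10.27, 9.37 and 10.00 on the static arrays. Hspa1b had 6.49, 5.30 and 6.47 under WSS and 9.15, 8.34 and 8.30 in static culture. Again the groups did not overlap, and array 2 of the WSS group, which stood apart in its erythroid transcripts, was the lowest for both. The differences were -3.23 ± 0.67 (Hspa1a, limma adjusted p = 0.0024) and -2.51 ± 0.46 (Hspa1b, adjusted p = 0.00087), or -2.70 and -2.12 without that array (limma adjusted p of 0.022 and 0.0095).

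At 36 h the arrays of a group lay further apart for both genes than at 6 h. Hspa1a had 7.83, 8.71 and 7.48 on the WSS vehicle arrays and 9.60, 7.74 and 8.97 on the static vehicle arrays, so that the groups overlapped. The difference was -0.76 ± 0.67 in vehicle (limma adjusted p = 0.53) and -1.17 ± 0.67 in indomethacin (adjusted p = 0.28). In indomethacin the WSS arrays held 9.19, 6.16 and 7.35 and the static arrays 10.20, 7.35 and 8.66. Each WSS array lay below the static array of the same number. The limma test above does not pair arrays, so the spread between replicate numbers stayed in its error. A paired test within this comparison was not run. With the replicate number as a block in the fit of all arrays, Hspa1a still did not pass in it. Hspa1b differed by -0.67 ± 0.46 in vehicle and -0.46 ± 0.46 in indomethacin, with limma adjusted p of 0.40 and 0.56. The change in the flow effect between the times, 36 h less 6 h, was 2.14 ± 0.95 for Hspa1a and 1.53 ± 0.65 for Hspa1b in vehicle (limma adjusted p of 0.14 and 0.13). In indomethacin it was 2.05 ± 0.95 and 2.05 ± 0.65 (adjusted p of 0.23 and 0.084). None of these 4 values passed. With the replicate number as a block Hspa1b passed in vehicle (limma adjusted p = 0.040) and in indomethacin (0.023), and Hspa1a in neither. The block assumes a common shift of same-numbered arrays over all groups. Between 36 h and 6 h of the same culture, deviations of same-numbered arrays from their group means correlated at only -0.13 to 0.099.

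**Figure D1:**
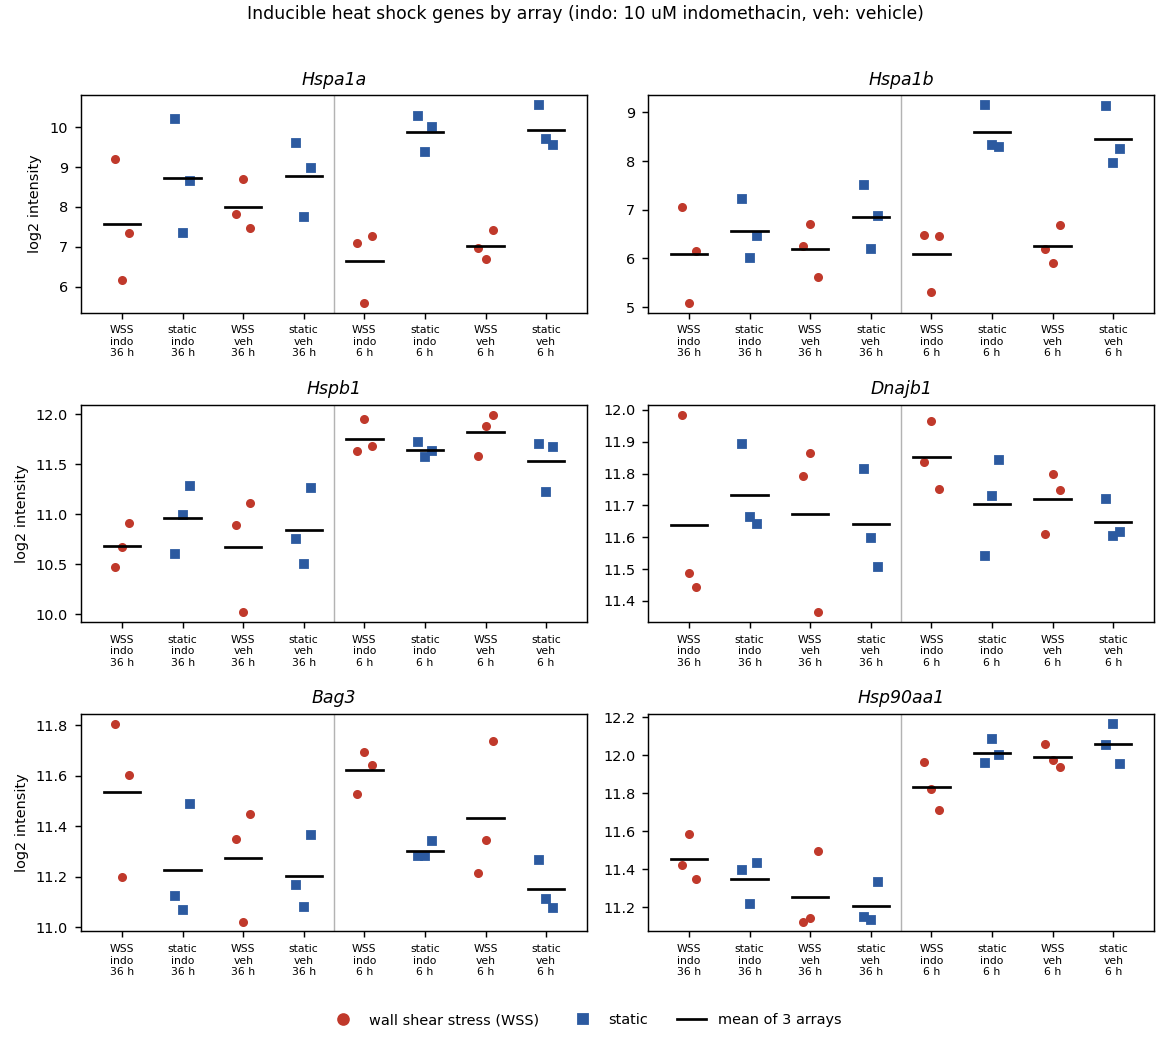
Log2 intensity (vertical axis) of 6 inducible members on each of the 24 arrays; the 8 groups run along the horizontal axis, round points are WSS arrays, squares static arrays and bars the mean of 3 arrays. At 6 h the WSS arrays of Hspa1a lie between 5.60 and 7.41 and the static arrays between 9.37 and 10.55. The group means of Hspb1, Dnajb1, Bag3 and Hsp90aa1 differ by at most 0.32 between WSS and static culture of the same drug state at that time.

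Of the other 8 inducible members none passed at 6 h in either drug state. Hspb1, the small heat shock protein HSP27, had 11.58, 11.88 and 12.00 on the WSS vehicle arrays and 11.70, 11.23 and 11.67 on the static vehicle arrays, which overlap. Its difference was 0.29 ± 0.24 (limma adjusted p = 0.39). Dnajb1, the main J-domain partner of inducible HSP70, differed by 0.07 ± 0.15, and Bag3, an exchange factor that steers clients to autophagy, by 0.28 ± 0.16. Hsp90aa1, the inducible cytosolic HSP90, differed by -0.07 ± 0.12. The limma adjusted p of these 3 lay between 0.20 and 0.76. Dnaja1, a J-domain protein of the cytosol, stood above background on 0 of the 6 vehicle arrays at 6 h, so no difference is given for it there. In indomethacin it was detected on 1 of 3 arrays in either flow state. Hsph1 had 11.88, 12.23 and 12.31 under WSS and 12.10, 11.72 and 11.81 in static culture, a difference of 0.27 ± 0.15 (adjusted p = 0.18). With median scaling Hspb1 and Bag3 passed upward in vehicle (0.65 and 0.64, limma adjusted p of 0.033 and 0.013), and Dnajb1 and Bag3 did in indomethacin (0.58 and 0.76, adjusted p of 0.028 and 0.0048). With array weights Bag3 passed in both drug states (0.40 in vehicle and 0.34 in indomethacin), and Hsp90aa1 passed downward in indomethacin (-0.24, limma adjusted p = 0.029).

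Immediate early genes, which answer to handling and stress within an hour, were lower under flow at 6 h, as the inducible HSP70 pair was. Of the 9 detected genes of that list (not Btg2), 6 fell under WSS at 6 h in vehicle and 6 in indomethacin, among them Fos (-1.42 in vehicle) and Egr1 (-1.17 in vehicle). Their summed intensity was 10947 to 12634 on the WSS vehicle arrays and 21120 to 26589 on the static vehicle arrays. In indomethacin it was 10732 to 14551 under WSS and 18586 to 24826 in static culture. At 36 h the ranges overlapped in both drug states, at 19133 to 33657 under WSS and 26454 to 34991 in static culture for vehicle. Over time in static vehicle culture the sum was not lower at 36 h (26454 to 34991, against 21120 to 26589 at 6 h), while Hspa1b fell. Under WSS in vehicle the sum was 19133 to 33657 at 36 h and 10947 to 12634 at 6 h, with mean Hspa1b at 6.19 and 6.26. The part of the immediate early genes in the result for Hspa1a and Hspa1b was not tested.

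**Figure D2:**
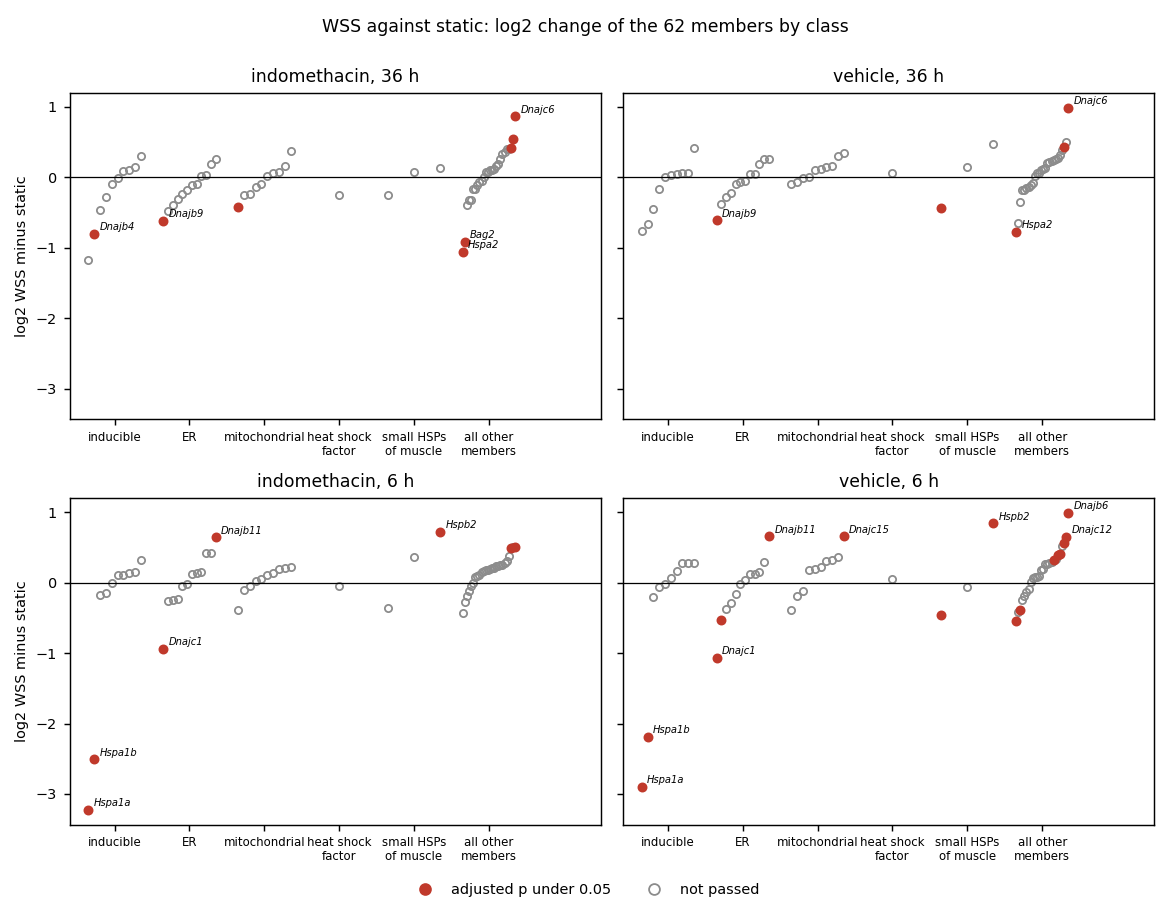
Log2 difference, WSS minus static (vertical axis), of each of the 62 members, ordered by size within 6 classes (horizontal axis), in the 4 flow comparisons; filled points passed at an adjusted p under 0.05 and open points did not. Hspa1a and Hspa1b lie at -3.23 to -2.19 at 6 h, and every other member lies between -1.07 and 0.99 in these 2 panels.

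Among the constitutive cytosolic chaperones at 6 h, Hspa8, the constitutive HSP70 and the brightest of the panel, had 14.56, 14.79 and 14.84 on the WSS vehicle arrays and 14.38, 14.56 and 14.44 on the static vehicle arrays. It differed by 0.27 ± 0.13 (limma adjusted p = 0.13), passed with median scaling (0.59) and with array weights (0.32), and one of its other probes gave 0.99 (adjusted p = 0.0015). Dnaja2, a J-domain partner of Hspa8, rose in both drug states. It had 9.43, 9.54 and 9.60 under WSS and 9.23, 8.98 and 9.15 in static culture in vehicle, and 9.45, 9.71 and 9.43 against 9.27, 9.03 and 8.78 in indomethacin. The WSS arrays were the higher in each drug state with no overlap. The differences were 0.41 ± 0.14 in vehicle and 0.50 ± 0.14 in indomethacin (limma adjusted p of 0.037 and 0.019). The call in vehicle was lost without any of the 3 WSS arrays or static array 2 or 3 (adjusted p up to 0.13), and that in indomethacin without WSS array 2 or static array 3 (up to 0.10) and on its other probe (0.39, adjusted p = 0.11).

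Dnajb6, a J-domain protein that holds back aggregation of misfolded protein, was the member with the largest rise at 6 h in vehicle. It had 10.74, 10.84 and 10.86 on the WSS vehicle arrays, against 9.94, 9.85 and 9.68 on the static vehicle arrays. The difference was 0.99 ± 0.13 (limma adjusted p = 1.6e-05), and 0.49 ± 0.13 in indomethacin (adjusted p = 0.012). The indomethacin arrays held 10.54, 10.80 and 10.82 under WSS and 10.17, 10.11 and 10.41 in static culture. WSS arrays were higher in both drug states with no overlap. The call in indomethacin was lost without WSS array 2 or 3 or static array 1 or 2 (adjusted p up to 0.061).

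The 3 detected probes of Dnajb6, which the platform assigns to 3 different RefSeq transcript records of the gene, did not move together. The brightest probe and the third rose by 0.99 and 0.96 in vehicle at 6 h, whereas the probe of intermediate brightness fell by 0.36 (limma adjusted p = 0.029). In indomethacin at 6 h the 3 values were 0.49, 0.56 and -0.23, the last not passing (adjusted p = 0.19). At 36 h the same probe was again of the opposite sign, at -0.16 in vehicle and -0.13 in indomethacin, and passed in neither. What part of each transcript the probes cover was not examined.

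**Figure D3:**
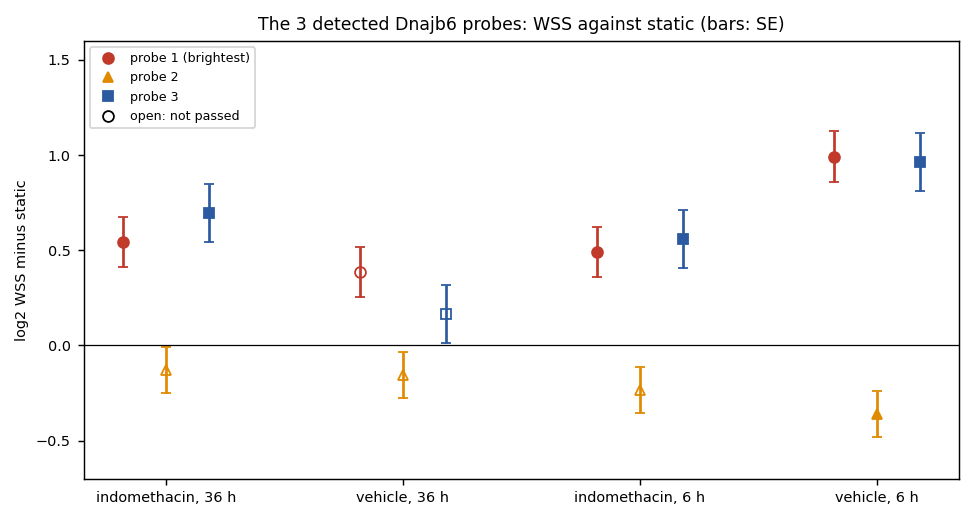
Log2 difference, WSS minus static (vertical axis), of the 3 detected Dnajb6 probes in the 4 flow comparisons (horizontal axis), with bars for 1 SE; filled symbols passed at an adjusted p under 0.05. Probes 1 and 3 lie above 0 in every comparison, at 0.99 and 0.96 in vehicle at 6 h, and probe 2 lies below 0 in every comparison, at -0.36 there.

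At 6 h co-chaperones of more specialised roles also passed. Dnajc7, a J-domain protein that passes clients between HSP70 and HSP90, rose by 0.40 ± 0.13 and Dnajc8, a J-domain protein of the spliceosome, by 0.32 ± 0.12 in vehicle (limma adjusted p of 0.028 and 0.042). Dnajc12, a partner of the aromatic amino acid hydroxylases, rose by 0.66 ± 0.21, and Dnajc17, a nuclear protein whose groups overlapped, by 0.56 ± 0.19 (adjusted p of 0.024 and 0.030). Among the falls, Dnajc21, a factor of ribosome assembly, had 10.04, 9.79 and 10.07 under WSS and 10.61, 10.41 and 10.52 in static culture (-0.55 ± 0.15, limma adjusted p = 0.010). Dnajc5, the cysteine string protein of secretory vesicles, fell (-0.39 ± 0.12, adjusted p = 0.015). In indomethacin none of these 6 passed, with limma adjusted p of 0.051 to 0.48. In vehicle Dnajc7 and Dnajc17 lost the call without WSS array 1 or 3 or static array 2 or 3 (adjusted p up to 0.12 and 0.16), Dnajc12 without any WSS array or static array 1 or 2 (up to 0.067), Dnajc21 without WSS array 2 (0.053) and Dnajc5 without static array 1 (0.069). With median scaling Dnajc21 was at -0.16 and Dnajc5 at -0.01, and neither passed; nor did the other probe of Dnajc21 (-0.14).

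Of the 12 ER members at 6 h, 1 rose and 2 fell in vehicle and 1 rose and 1 fell in indomethacin, against 15.1% of all genes that rose and 14.3% that fell in vehicle and 9.45% and 8.34% in indomethacin. The medians were 0.01 and 0.06, against 0.01 and 0.04 over all genes. With median scaling 3 rose and 1 fell in each drug state. Of all 12226 genes 3551 then rose and 767 fell in vehicle, and 4064 rose and 510 fell in indomethacin. Hspa5, the HSP70 of the ER known as BiP and the usual readout of ER stress, had 8.01, 7.67 and 8.13 on the WSS vehicle arrays and 8.09, 8.06 and 7.54 on the static vehicle arrays, a difference of 0.04 ± 0.24 (limma adjusted p = 0.92, 95% interval -0.47 to 0.55). Hsp90b1, the HSP90 of the ER, differed by -0.37 ± 0.16 (adjusted p = 0.078) and passed downward with array weights (-0.39). Dnajb11, a J-domain partner of BiP, had 11.43, 11.15 and 11.22 under WSS, against 10.49, 10.86 and 10.48 in static culture. It rose by 0.66 ± 0.15 in vehicle and by 0.64 ± 0.15 in indomethacin (limma adjusted p of 0.0031 and 0.0067); the call in indomethacin was lost without static array 1 (0.057).

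Dnajc1, a J-domain protein of the ER membrane, fell in both drug states at 6 h. It had 5.91, 6.10 and 5.77 on the WSS vehicle arrays and 6.52, 7.14 and 7.32 on the static vehicle arrays, and in indomethacin 5.98, 5.05 and 5.21 against 6.28, 6.33 and 6.45. No WSS array reached the lowest static array of its drug state. The differences were -1.07 ± 0.26 and -0.94 ± 0.26 (limma adjusted p of 0.0036 and 0.015); without WSS array 2 or 3 the call in indomethacin was lost (adjusted p up to 0.088). Dnajc16, another ER membrane protein, fell in vehicle (-0.53 ± 0.15, adjusted p = 0.0094), but was at -0.18 with median scaling and its other probe at -0.05, neither of which passed.

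Of the 10 mitochondrial members, 1 rose and none fell at 6 h in vehicle and none passed in indomethacin, against 15.1% and 9.45% of all genes that rose. This count depends on the scaling: with median scaling 6 rose in vehicle and 5 in indomethacin and none fell. Of all 12226 genes 3551 and 4064 rose with that scaling. With array weights 3 rose and none fell in vehicle, and 2 rose and 1 fell in indomethacin. Over all genes array weights gave 2447 rises and 2262 falls in vehicle and 2707 and 2174 in indomethacin. Hspd1 and Hspe1, the mitochondrial chaperonin and its lid, which share a promoter region, differed by 0.22 ± 0.12 and 0.36 ± 0.23 in vehicle (limma adjusted p of 0.19 and 0.26), and Hspa9, the mitochondrial HSP70, by -0.12 ± 0.12. Hspd1 and Hspe1 passed upward with median scaling (0.61 and 0.73), and a second probe of Hspd1 gave 1.25 in the quantile-normalized values (adjusted p = 0.00031). Dnajc15, a J-domain protein of the import motor, had 10.30, 9.40 and 9.64 under WSS and 9.16, 9.24 and 8.98 in static culture. It rose by 0.66 ± 0.24 (limma adjusted p = 0.043), a call lost without WSS array 1 or 3 or any static array (adjusted p up to 0.26), and stood at 0.05 ± 0.24 in indomethacin.

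Hsf2, a heat shock factor active in development, had 8.09, 7.83 and 8.10 on the WSS vehicle arrays and 7.75, 8.35 and 7.76 on the static vehicle arrays at 6 h (0.05 ± 0.23, limma adjusted p = 0.90). It passed in none of the 4 flow comparisons. Of the 3 small heat shock proteins of muscle, Hspb2 rose at 6 h in both drug states and Hspb6 fell in vehicle. Hspb2 had 6.08, 6.49 and 6.44 under WSS and 5.54, 5.49 and 5.45 in static culture in vehicle, and 6.12, 6.18 and 6.46 against 5.19, 5.87 and 5.53 in indomethacin. The differences were 0.84 ± 0.25 (limma adjusted p = 0.015, or 0.054 without WSS array 2) and 0.72 ± 0.25 (adjusted p = 0.0498), the second lost without any of the 3 WSS arrays or static array 1 or 3 (up to 0.22). Hspb6 had 8.38, 8.56 and 8.59 under WSS and 8.87, 8.88 and 9.16 in static culture in vehicle, a difference of -0.46 ± 0.13 (limma adjusted p = 0.012) that was lost without WSS array 1 or static array 3 (0.077) and with median scaling (-0.12). Of the 5 muscle markers, none rose and 1 fell with flow at 6 h in vehicle. Their summed intensity was 9096 to 10193 under WSS and 5506 to 7758 in static culture there. Mesenchymal markers, of which 2 of 5 fell there, summed to 2006 to 2090 under WSS and 2695 to 3017 in static culture. The part of these cells in the results for Hspb2 and Hspb6 was not tested. The macrophage markers, of which 3 of 5 rose in each drug state at 6 h, summed to 390 to 668 on the WSS vehicle arrays and 217 to 254 on the static vehicle arrays, and their part in these results was not tested either.

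In indomethacin at 6 h 4 of the 62 members rose (Dnajb11, Dnaja2, Dnajb6 and Hspb2) and 3 fell (Hspa1a, Hspa1b and Dnajc1), against 9.45% and 8.34% of all genes. With median scaling the members split into 26 up and 3 down, while of all 12226 genes 4064 rose and 510 fell. Without WSS array 2 the members split into 1 up and 2 down, while of all genes 562 rose and 636 fell. The flow comparisons in vehicle and in indomethacin share no arrays, but they share 1 estimate of the spread in the fit. The labels do not say whether their cells came from the same dissections.

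At 36 h the question was whether the members still differed between flow and static culture. In vehicle 2 rose (Dnajc6 and Dnajc7) and 3 fell (Hspa2, Dnajb9 and Hspb6), against 4.66% and 4.72% of all genes, and in indomethacin 3 rose (Dnajc6, Dnajb6 and Dnajc13) and 5 fell (Hspa2, Bag2, Dnajb4, Dnajb9 and Dnajc4), against 5.05% and 5.78%. The members' median changes were 0.06 and 0.00, against 0.03 and 0.02 over all genes. With median scaling the medians over all genes were 0.24 and 0.12. The members then split into 9 up and 0 down in vehicle and 3 up and 3 down in indomethacin. Of all 12226 genes 1799 then rose and 266 fell in vehicle, and 744 rose and 368 fell in indomethacin. When the spread was estimated from the 6 arrays compared alone, 0 members passed in vehicle and 2 in indomethacin. In that fit 8 and 12 members had an unadjusted p under 0.05 in limma. Of all 12226 genes only 39 then rose and 84 fell in vehicle, and 254 rose and 456 fell in indomethacin.

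Hspa2, an HSP70 best known for its role in sperm formation, fell in both drug states at 36 h. It had 8.46, 8.55 and 9.15 on the WSS vehicle arrays and 9.37, 9.21 and 9.90 on the static vehicle arrays, and in indomethacin 8.84, 8.60 and 8.98 against 10.08, 9.64 and 9.85. Each WSS array lay below the static arrays of its drug state. The differences were -0.77 ± 0.19 (limma adjusted p = 0.015) and -1.05 ± 0.19 (adjusted p = 0.0012). In vehicle the call was lost without WSS array 1 or 2 or static array 3 (adjusted p up to 0.096) and with median scaling (-0.51, 0.084). At 6 h Hspa2 stood at 0.01 ± 0.19 in vehicle.

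Dnajb9, a J-domain protein of the ER that damps the stress sensor IRE1, likewise fell at 36 h. It had 10.25, 10.00 and 9.85 under WSS and 10.67, 10.69 and 10.56 in static culture in vehicle, and 9.90, 9.80 and 9.91 against 10.79, 10.39 and 10.29 in indomethacin. The groups did not overlap in either drug state. The differences were -0.61 ± 0.13 and -0.62 ± 0.13 (limma adjusted p of 0.0061 and 0.0045), and with median scaling -0.36 and -0.48, neither passing. The other probe of Dnajb9 gave -0.39 in vehicle (adjusted p = 0.15) and -0.91 in indomethacin (adjusted p = 0.00089). Hspa5 and Hsp90b1, the main chaperones of the same compartment, differed by -0.05 ± 0.24 and -0.09 ± 0.16 in vehicle and by -0.39 ± 0.24 and -0.31 ± 0.16 in indomethacin, with limma adjusted p of 0.22 to 0.93.

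Dnajc6, the auxilin that uncoats clathrin vesicles in neurons, was the member with the largest rise at 36 h. It had 8.77, 9.28 and 9.09 on the WSS vehicle arrays and 7.90, 8.33 and 7.95 on the static vehicle arrays, and in indomethacin 8.97, 9.48 and 8.07 against 7.88, 7.92 and 8.12. The differences were 0.99 ± 0.23 (limma adjusted p = 0.010) and 0.87 ± 0.23 (adjusted p = 0.021), and 1 WSS array in indomethacin lay within the static range. The call in vehicle was lost without static array 1 (0.052) and that in indomethacin without WSS array 1 or 2 or static array 1 or 2 (up to 0.13). Neural markers moved with it: 3 of 4 detected markers rose in each drug state at 36 h, with summed intensities of 4349 to 5109 under WSS and 1915 to 2551 in static culture in vehicle, and 2805 to 5104 against 1842 to 2533 in indomethacin. At 6 h none of the 4 passed and Dnajc6 differed by 0.08 ± 0.23 in vehicle. The part of neural cells in the result was not tested.

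**Figure D4:**
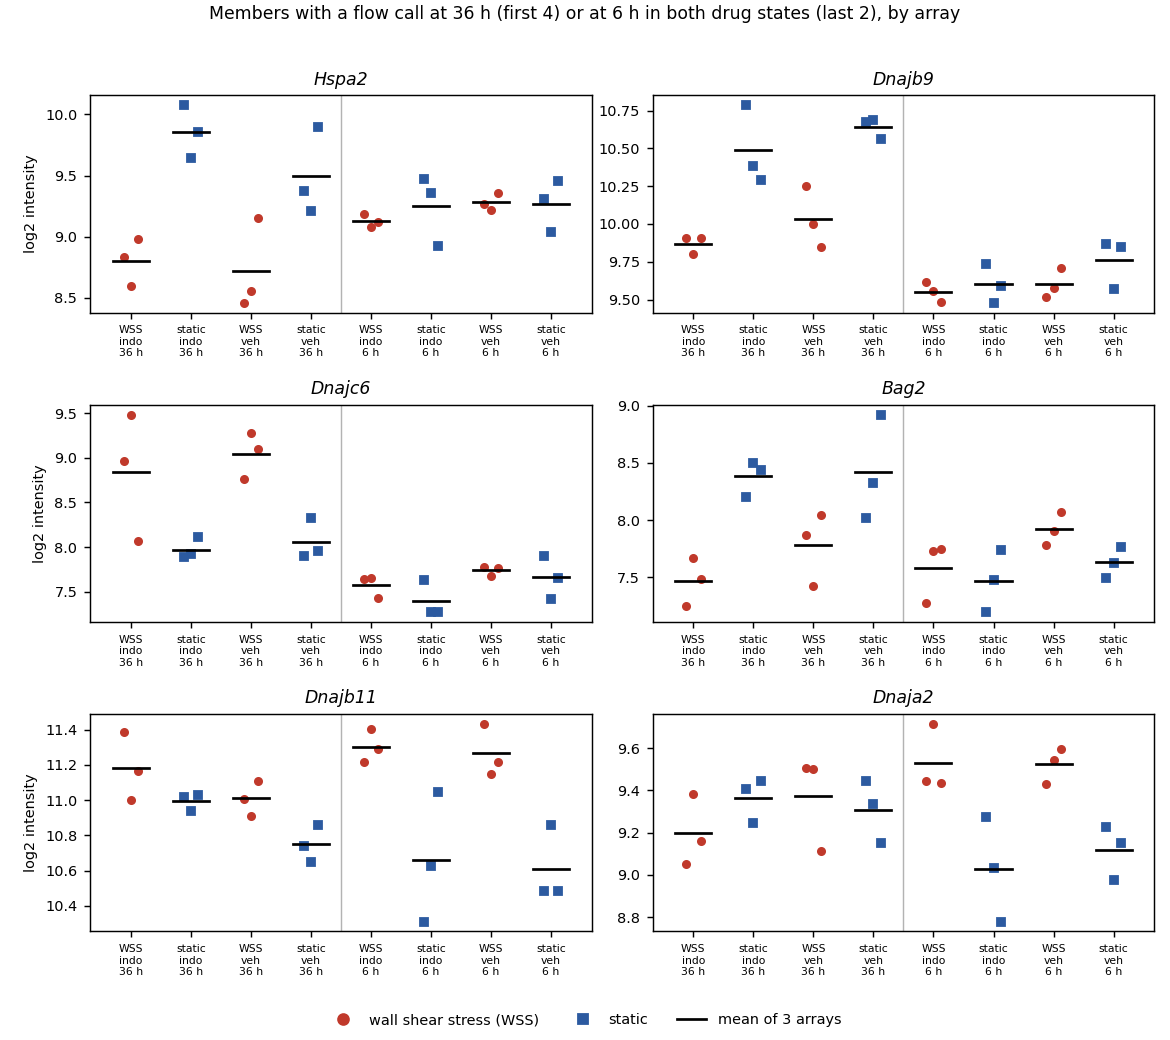
Log2 intensity (vertical axis) on each array of Hspa2, Dnajb9, Dnajc6 and Bag2, called for flow at 36 h in at least 1 drug state, and of Dnajb11 and Dnaja2, called at 6 h in both; the groups run along the horizontal axis, round points are WSS arrays, squares static arrays and bars the mean of 3 arrays. For Hspa2 at 36 h the WSS arrays lie between 8.46 and 9.15 and the static arrays between 9.21 and 10.08.

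Other members passed in 1 drug state at 36 h. Bag2, which blocks the ubiquitin ligase CHIP on HSP70, had 7.25, 7.66 and 7.48 on the WSS indomethacin arrays and 8.21, 8.50 and 8.44 on the static indomethacin arrays, a difference of -0.92 ± 0.21 (limma adjusted p = 0.0061). In vehicle it was -0.64 ± 0.21 (adjusted p = 0.052), and it passed there with the replicate number as a block (limma adjusted p = 0.013). Dnajb4, an inducible J-domain protein, fell in indomethacin (-0.80 ± 0.23, adjusted p = 0.028), a call lost without WSS array 1 or 2 or static array 2 or 3 (up to 0.15), and its other probe gave -0.23 there but passed in vehicle (-1.05, adjusted p = 0.0041). Dnajb6 rose in indomethacin (0.54 ± 0.13, adjusted p = 0.0096, lost without WSS array 1 at 0.072), as did Dnajc13, a J-domain protein of endosomes (0.41 ± 0.13, adjusted p = 0.042, lost without any WSS array or static array 1 or 3, up to 0.18).

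The remaining calls at 36 h were close to the threshold. Dnajc7 rose in vehicle (0.44 ± 0.13, limma adjusted p = 0.042), but with the replicate number as a block its adjusted p was 0.0501, and it was lost without WSS array 1 or 3 or static array 1 or 3 (up to 0.16). Dnajc4, counted with the mitochondrial members, fell in indomethacin (-0.42 ± 0.13, adjusted p = 0.044) and had 0.053 with the replicate block; it was lost without WSS array 1 or 3 or static array 2 or 3 (up to 0.24) and its groups overlapped. Hspb6 fell in vehicle (-0.44 ± 0.13, adjusted p = 0.038) and lost the call without any 1 of the 6 arrays compared (up to 0.11), with median scaling (-0.19) and with array weights (0.059). With array weights Dnajc13 and Dnajc4 in indomethacin also lost the call (0.063 and 0.050). Mesenchymal markers, of which 2 of 5 fell in each drug state at 36 h, summed to 2660 to 3482 on the WSS vehicle arrays and 5040 to 5455 on the static vehicle arrays, and their part in these falls was not tested.

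The difference of the flow effects between the times was tested as an interaction, 36 h less 6 h. In vehicle 4 members passed, against 11.8% of all genes: Dnajc1 (1.26 ± 0.36, limma adjusted p = 0.028), Dnajc5 (0.51 ± 0.16, 0.046), Bag2 (-0.93 ± 0.29, 0.041) and Dnajb6 (-0.61 ± 0.18, 0.036). The flow effect of Dnajc1 was 0.19 at 36 h and -1.07 at 6 h, and that of Bag2 was -0.64 at 36 h and 0.29 at 6 h. In indomethacin 0 members passed, against 2.91% of all genes, with 11 members at an unadjusted p under 0.05, and Bag2 had the smallest p (-1.03 ± 0.29, adjusted p = 0.055); with the replicate block 3 members passed, Bag2 (adjusted p = 0.020), Hspa1b (2.05, 0.023) and Hspa2 (-0.93, 0.046). In vehicle the block added Hspa1b and Hspa2 (-0.79, limma adjusted p = 0.045) to the 4. The limit given above for the block holds for all these added calls. With median scaling 4 members fell in the interaction in indomethacin, where 63 of all 12226 genes rose and 336 fell. Of all genes' calls there 15.8% were upward, against 48.3% in the quantile-normalized values.

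Indomethacin itself changed no member at this threshold. The counts were 0 of 62 under WSS and 0 of 62 in static culture at each time, with 0 to 3 members at an unadjusted p under 0.05 in each of the 4 comparisons in limma, against 0.00818% of all genes under WSS at 36 h, 0.0491% in static culture at 36 h and 0% in both flow states at 6 h. The smallest p belonged to Dnajb6 in static culture at 6 h (0.41 ± 0.13, unadjusted p = 0.0046 and adjusted p = 0.48 in limma). The smallest elsewhere belonged to Dnajc1 under WSS at 6 h (-0.51 ± 0.26) and Dnajc4 under WSS at 36 h (-0.32 ± 0.13). In static culture at 36 h it belonged to Dnajb5, which was above background on 0 of 3 indomethacin and 2 of 3 vehicle arrays (at least 1.26-fold lower, limma adjusted p = 0.78). Hspa1a differed between indomethacin and vehicle by -0.38 ± 0.67 under WSS and -0.05 ± 0.67 in static culture at 6 h. The flow by drug interaction, indomethacin less vehicle, likewise passed for 0 members at 6 h and 0 at 36 h, where 0% of all genes passed, with 1 member each at an unadjusted p under 0.05 in limma. These were Dnajb6 at 6 h (-0.50 ± 0.18) and Dnajc4 at 36 h (-0.42 ± 0.19). A change that misses the threshold does not show that the drug was without effect.

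More members passed for culture time than for flow. At 36 h against 6 h in static vehicle culture 15 members rose and 16 fell, against 26% and 25% of all genes. In WSS vehicle culture 8 rose and 10 fell (18% and 17.7% of all genes), in static indomethacin culture 16 and 14 (24.5% and 22.3%) and in WSS indomethacin culture 8 and 11 (14.6% and 16.2%). None of these counts stood clear of the background. With median scaling the split of members was 21 up and 6 down in static indomethacin culture. There 3464 of all 12226 genes rose and 1774 fell. The median of all genes moved to 0.15 and 66.1% of all genes' calls were upward, against 52.4%. Erythroid markers fell with time, 2 of 4 in static and 4 of 4 in WSS vehicle culture, with summed intensities of 5753 to 23809 at 36 h and 28483 to 58896 at 6 h in static vehicle culture. Mesenchymal markers rose, 4 of 5 in static vehicle culture. The part of these cells in the time results was not tested. The time comparisons use the same arrays as the flow comparisons above.

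Hsp90aa1, Hspb1, Hspa8, Hspa9 and Hspd1 were lower at 36 h in each of the 4 time comparisons, for which they were picked out after their values were seen. Hspe1, the partner of Hspd1, did not pass in any of them (0.22 ± 0.23 in static vehicle and 0.42 ± 0.23 in static indomethacin culture, limma adjusted p of 0.46 and 0.15). Of the 10 mitochondrial members 4 rose and 3 fell in static vehicle culture, and of the 10 inducible members 0 rose and 4 fell, with medians of 0.03 and -0.27. Hsp90aa1 had 11.15, 11.13 and 11.34 on the static vehicle arrays at 36 h and 12.06, 12.16 and 11.95 at 6 h, and under WSS 11.13, 11.14 and 11.50 against 12.06, 11.97 and 11.94. The ranges were far apart in both flow states. The differences were -0.85 ± 0.12 in static and -0.74 ± 0.12 in WSS vehicle culture (limma adjusted p of 6e-06 and 8e-05). Hspb1 had 10.75, 10.51 and 11.26 at 36 h and 11.70, 11.23 and 11.67 at 6 h in static vehicle culture (-0.69 ± 0.24, adjusted p = 0.019), and under WSS 10.89, 10.02 and 11.11 against 11.58, 11.88 and 12.00 (-1.14 ± 0.24, adjusted p = 0.00080). Hspa8 fell in static vehicle culture (-0.47 ± 0.13, adjusted p = 0.0044), as did Hspa9 (-0.65 ± 0.12, 0.00016) and Hspd1 (-0.51 ± 0.12, 0.0017).

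Other members also fell with time. Dnajc11, a J-domain protein of the mitochondrial inner membrane scaffold, had 4.78, 5.14 and 4.69 at 36 h and 6.47, 6.53 and 6.46 at 6 h in static vehicle culture. It was above background on all arrays at 6 h, but at 36 h on 0 of 3 in either static group and 2 of 3 in either WSS group. This probe thus passed the detection filter only through the 6 h groups, where it is high, and the p-values below carry that limit. Dnajc11 was at least 2.41-fold lower in static vehicle culture (limma adjusted p = 5.6e-07) and at least 2.68-fold lower in static indomethacin culture (3.8e-07). Its other probe gave -0.53 in static vehicle culture (adjusted p = 0.030). Hspa1b fell in static vehicle culture (-1.59 ± 0.46, limma adjusted p = 0.0065) and in static indomethacin culture (-2.04 ± 0.46, 0.0011), and differed by -0.07 and 0.01 under WSS. Hspa1a differed by -1.16 ± 0.67 in static vehicle culture (adjusted p = 0.16), although its 2 other probes gave -1.63 and -2.51 and passed. Dnajc1 fell in static vehicle culture (-1.51 ± 0.26) and Dnajc21 in all 4 comparisons (-1.26 ± 0.15 in static vehicle culture, where its other probe gave -0.40 and did not pass).

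Among the rises, Hspb3, a small heat shock protein of muscle, was higher at 36 h in all 4 comparisons. It was above background on all 3 arrays of each group at 36 h, but at 6 h on only 1 of 3 in each vehicle group, 2 of 3 in the WSS indomethacin group and 0 of 3 in the static indomethacin group. It was thus tested only through the groups where it is high, and its differences are taken from signals mostly not above background at 6 h. It had 6.36, 5.93 and 5.57 at 36 h and 4.80, 4.91 and 5.03 at 6 h in static vehicle culture (1.04 ± 0.20, limma adjusted p = 0.00025), and under WSS 6.85, 6.14 and 6.30 against 5.26, 4.57 and 4.74 (1.57 ± 0.20, 8.2e-06). In static indomethacin culture it was at least 2.34-fold higher (limma adjusted p = 5.4e-06). Its partner Hspb2 rose in static vehicle (1.19 ± 0.25) and static indomethacin culture (1.01 ± 0.25). Of the 5 muscle markers 3 rose with time in each static comparison and 4 in each WSS comparison, with summed intensities of 7663 to 13037 at 36 h and 5506 to 7758 at 6 h in static vehicle culture. The part of muscle cells in these rises was not tested.

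Hspa12b, a distant HSP70 relative found in endothelial cells, rose with time too. It had 7.89, 7.91 and 7.44 at 36 h and 6.89, 6.69 and 6.62 at 6 h in static vehicle culture (1.01 ± 0.20, limma adjusted p = 0.00029), and differed by 0.92 ± 0.20 under WSS (adjusted p = 0.0013). The 5 endothelial markers summed to 227 to 315 at 36 h and 310 to 403 at 6 h in static vehicle culture, and none of the 5 passed there. Dnajc15 (1.20 ± 0.24) and Dnajc12 (0.98 ± 0.21) also rose in static vehicle culture. Dnajc6 rose in WSS vehicle culture (1.31 ± 0.23, adjusted p = 0.00021) and WSS indomethacin culture (1.26 ± 0.23, adjusted p = 0.00037). Dnajc12 and Dnajc15 rose in WSS indomethacin culture by 0.70 each, and Hspa4l fell there (-0.62); these 3 calls were each lost without 4 or 5 of the 6 arrays compared, including array 2 of the WSS 36 h group (adjusted p up to 0.16).

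**Figure D5:**
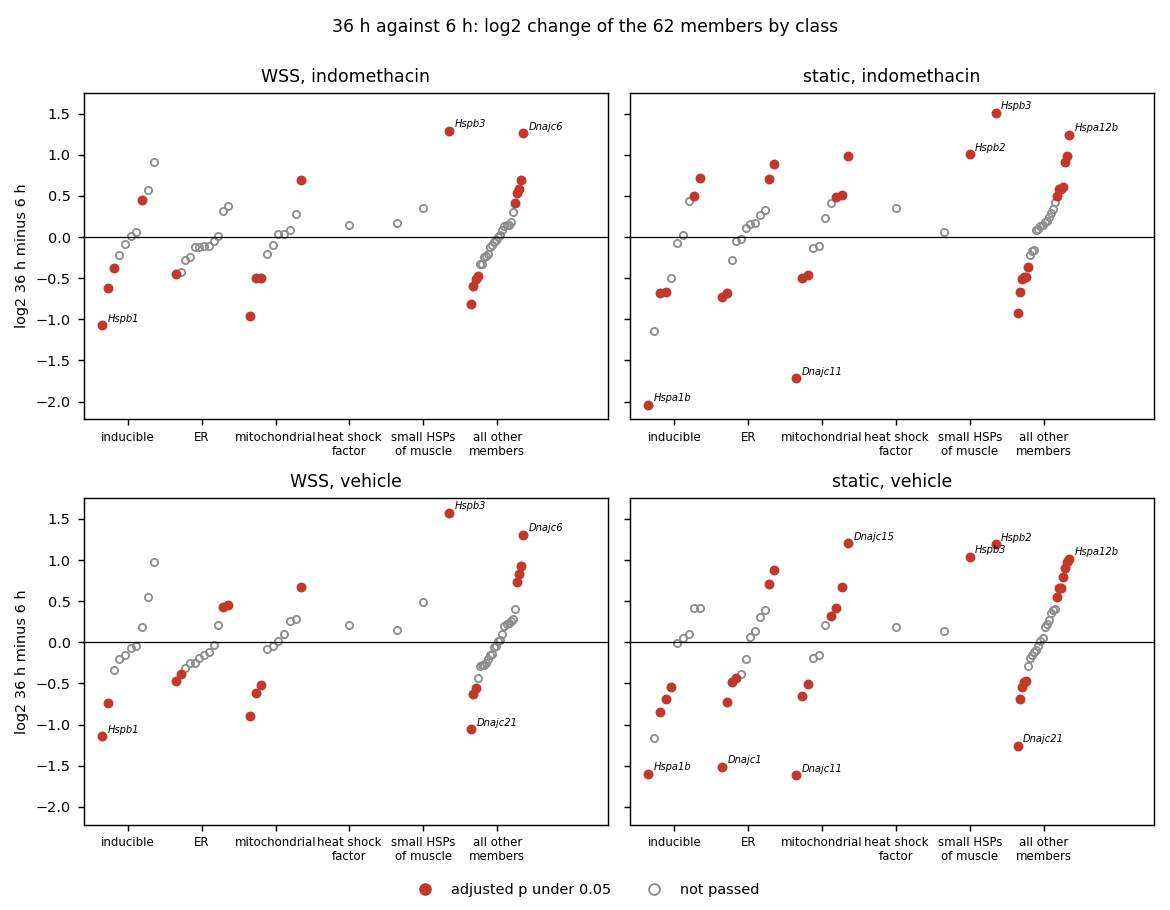
Log2 difference, 36 h minus 6 h (vertical axis), of each of the 62 members, ordered by size within 6 classes (horizontal axis), in the 4 combinations of flow and drug; filled points passed at an adjusted p under 0.05 and open points did not. In static vehicle culture Hsp90aa1 lies at -0.85 and Hspa12b at 1.01. The points of Hspb3 and Dnajc11 rest in part on arrays where these genes were not above background.

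The other genes of the folding pathway came from a list of 43 partners outside the rule, of which 40 were tested. At 6 h 13 rose and 3 fell under WSS in vehicle and 8 rose and 2 fell in indomethacin, against 15.1% of all genes that rose and 14.3% that fell in vehicle and 9.45% and 8.34% in indomethacin. The medians were 0.28 and 0.27, against 0.01 and 0.04 over all genes. With median scaling the splits were 26 up and 1 down and 25 up and 0 down. Of all 12226 genes 3551 then rose and 767 fell in vehicle, and 4064 rose and 510 fell in indomethacin. At 36 h 2 rose and 2 fell in vehicle and 1 rose and 5 fell in indomethacin, against 4.66% and 4.72% of all genes in vehicle and 5.05% and 5.78% in indomethacin. The medians at 36 h were -0.04 in both, against 0.03 and 0.02 over all genes. With median scaling the splits at 36 h were 3 up and 0 down and 1 up and 1 down. Over all genes 1799 then rose and 266 fell in vehicle, and 744 rose and 368 fell in indomethacin. Co-chaperones of HSP90 were among those that rose at 6 h in vehicle: Ahsa1, which speeds its ATPase (0.95 ± 0.13, limma adjusted p = 3.5e-05), Ptges3, known as p23, which holds it closed (0.73 ± 0.13, 0.00024), and Cdc37, which brings kinases to it (0.72 ± 0.19, 0.0074). Hspbp1, an exchange factor of HSP70, rose by 0.84 ± 0.15 (0.00028), and Cryab, the small heat shock protein alpha B-crystallin, by 1.46 ± 0.32 (0.0018). Chordc1 rose by 0.41 ± 0.11 (0.0097). The other cytosolic partners, Stip1, Fkbp4, Unc45a, Sugt1, Cacybp, Stub1, St13 and Serpinh1, did not pass. Their differences were -0.07 to 0.24 (limma adjusted p of 0.23 to 0.95). Of the 14 cytosolic partners tested 6 rose in each drug state at 6 h and none fell, against the 15.1% and 9.45% of all genes that rose; with median scaling 11 rose in each.

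Of the 13 ER partners 4 rose and 2 fell at 6 h in vehicle, against 15.1% and 14.3% of all genes. With median scaling 7 rose and none fell, while 3551 of all 12226 genes rose and 767 fell. Sdf2l1, a cofactor of the BiP cycle, rose by 0.91 ± 0.16 and Pdia6, a disulfide isomerase, by 0.89 ± 0.22 (limma adjusted p of 0.00029 and 0.0047), whereas Herpud1, a factor of ER-associated degradation, fell (-0.64 ± 0.18, adjusted p = 0.0097). Of the 8 subunits of the cytosolic chaperonin 2 rose in vehicle and none passed in indomethacin, with medians of 0.28 and 0.15. With median scaling 6 and 5 rose, while 3551 and 4064 of all 12226 genes did. Among the 5 mitochondrial partners Lonp1, a protease of the matrix, fell (-0.79 ± 0.13, adjusted p = 0.00017) and Grpel1, the exchange factor of Hspa9, rose by 0.71 ± 0.20 (adjusted p = 0.0096). Cryab was among the rises in all 4 flow comparisons (1.02 ± 0.32 in vehicle and 1.21 ± 0.32 in indomethacin at 36 h, limma adjusted p of 0.047 and 0.018).

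Set side by side, the classes gave these counts for flow at 6 h in vehicle: of 10 inducible members 0 rose and 2 fell, of 12 ER members 1 rose and 2 fell, of 10 mitochondrial members 1 rose and 0 fell, of 3 small heat shock proteins of muscle 1 rose and 1 fell, and of 26 others 6 rose and 2 fell, against 15.1% of all genes that rose and 14.3% that fell. Their medians were 0.02, 0.01, 0.20, -0.06 and 0.19. In indomethacin at 6 h the rises and falls were 0 and 2, 1 and 1, 0 and 0, 1 and 0, and 2 and 0 in the same order, against 9.45% and 8.34% of all genes. With median scaling the rises and falls in that order were 2 and 2, 3 and 1, 6 and 0, 1 and 0, and 14 and 0 in vehicle, and 3 and 2, 3 and 1, 5 and 0, 1 and 0, and 14 and 0 in indomethacin. Of all 12226 genes 3551 then rose and 767 fell in vehicle, and 4064 rose and 510 fell in indomethacin. Differences between the classes were not tested.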

How the data were processed

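The 24 Illumina bead arrays fall into 8 groups of 3 by their sample titles, and 3 arrays a group limit the precision. The main deposited table gives, per the file headers, an average signal for every probe, a linear intensity, and a detection p-value next to it; the authors' earlier steps are not stated in any source used. The authors' processed intensity table, also deposited and linear, has column medians of 11.6 or 11.7 and served as an alternative with a floor of 16.

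In limma 3.58.1 (R 4.3.3), neqc estimated the background by normexp through the detection p-values, and after an offset of 16 the signals were quantile normalized and put on the log2 scale; the offset shrinks changes of dim genes. Probes were kept where every array of any 1 group had a detection p under 0.05, symbols were updated with the RefSeq gene table of GRCm38.p6, and the brightest probe stood for a gene. A single model with 1 mean per group (16 residual degrees of freedom) was fitted to 12226 genes. Tests are 2-sided, adjusted by Benjamini-Hochberg over all genes and called under 0.05. The fit was tested on simulated data. Of the members, 28 have over 1 detected probe.

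The members and lists were chosen with earlier results of these data known. A digit after the stem was not asked of Hsp90, whose symbols go on with letters. Named are a fixed panel, the 8 largest rises and 8 largest falls in flow comparisons, 4 and 4 in time comparisons, members passing an interaction and, where none passes, the member with the smallest p; partners, markers and Dnajc8 are given beside them. For WSS against static, deviations of same-numbered arrays correlated at 0.12 to 0.36 at 36 h in vehicle and in both indomethacin comparisons. They correlated at 0.026 to 0.11 at 6 h in vehicle. The main fit pairs no arrays, and only the replicate block takes the numbers into account. Other settings tried were array weights, median scaling, the replicate number as a block, an offset of 50, uncorrected background, the processed values, keeping dim probes, a detection p under 0.01, only the arrays compared, other probes of a gene, and each array left out. Some marker genes are not reported here.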

Additional observations from a re-analysis of the deposited data

Results flagged for a closer look

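In vehicle, the flow effect of 4 members differed between 36 h and 6 h by the interaction test in limma, each value being the effect at 36 h less that at 6 h. Dnajc1 gave 1.26 (adjusted p = 0.028), with flow effects of 0.19 at 36 h and -1.07 at 6 h. Dnajc5 gave 0.51 (adjusted p = 0.046), with 0.12 and -0.39. Bag2 gave -0.93 (adjusted p = 0.041), with -0.64 and 0.29, and Dnajb6 gave -0.61 (adjusted p = 0.036), with 0.38 and 0.99. All 4 calls are close to the threshold. Dnajc5 lost it without any one of 11 of the 12 arrays compared, Dnajb6 without any of 9, Bag2 without any of 8 and Dnajc1 without any of 7, with adjusted p up to 0.11 for Dnajc5 and Bag2, 0.093 for Dnajb6 and 0.078 for Dnajc1.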

How the results depend on the processing

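Counts of members passing moved with the scaling and with the estimate of the spread. For WSS against static, 16 members passed at 6 h in vehicle, 7 at 6 h in indomethacin, 5 at 36 h in vehicle and 8 at 36 h in indomethacin. Median scaling gave 29, 29 and 9 in the first 3, array weights 25 and 25 in the first 2, and fitting only the arrays compared gave 0 at 36 h in vehicle and 2 in indomethacin. Calls over all 12226 genes moved as well. Against 1841 rises and 1752 falls at 6 h in vehicle, median scaling gave 3551 and 767 and array weights 2447 and 2262. Against 1155 and 1020 at 6 h in indomethacin they gave 4064 and 510, and 2707 and 2174. At 36 h in vehicle median scaling gave 1799 and 266, against 570 and 577. Only the arrays compared gave 39 and 84 there, and 254 and 456 in indomethacin, against 618 and 707. For flow by time in vehicle (4 members), median scaling gave 1 and only the arrays compared 2; in indomethacin (0 members) no background correction gave 4, an offset of 50 gave 3, median scaling 4, a detection p under 0.01 gave 1, only the arrays compared 2, array weights 6 and the replicate block 3. Over all genes flow by time in vehicle gave 774 rises and 663 falls. Median scaling gave 343 and 337, and only the arrays compared 515 and 433. In indomethacin the counts over all genes were 172 and 184, with array weights 533 and 559 and with median scaling 63 and 336. Over all comparisons the replicate block added 8 calls of members and ended 4. Beside those given in the report, it ended the calls of Dnajc15 in vehicle at 6 h (0.052) and Hspa4l for time in static vehicle culture (0.054), and added Dnajb12 upward there (0.047) and Hspa4 downward for time in WSS vehicle culture (0.046). Leaving out 1 array at a time gave 9 to 13 members at 6 h in vehicle (9 without WSS array 1), 3 to 9 at 6 h in indomethacin (3 without WSS array 2), 2 to 6 at 36 h in vehicle (2 without WSS array 1 or static array 3), 3 to 6 at 36 h in indomethacin (3 without WSS array 1), 11 to 17 for time in WSS indomethacin culture (11 without array 2 at 36 h), 0 to 4 for flow by time in vehicle (0 without WSS array 1 or 3 or static array 2 or 3 at 6 h, or WSS array 2 at 36 h) and 0 to 2 in indomethacin. Over all genes 1347 rose and 1277 fell at 6 h in vehicle without WSS array 1. At 6 h in indomethacin 562 rose and 636 fell without WSS array 2. Without WSS array 1 at 36 h, 396 rose and 454 fell in vehicle and 300 rose and 436 fell in indomethacin. Among the named results the 1 reversal was the second probe of Dnajb6. It stood at -0.36 at 6 h in vehicle and at -0.23 at 6 h and -0.13 at 36 h in indomethacin. For flow by time in vehicle it stood at 0.20. Over all passing members with other probes, every probe shared the sign for 14 of 15 for time in static vehicle culture. In static indomethacin culture this held for 17 of 18. Hspa1a and Hspa1b kept direction and call at 6 h under every alternative run. With 1 array left out, 698 results for single members kept their side of the threshold, 122 lost the call and 2 gained it. With median scaling 106 kept their side, 13 lost the call and 11 gained it. Those that kept their side include results that passed in neither fit, and some of these changed sign. Hspa5 at 6 h in vehicle, for example, ranged from -0.14 to 0.17 with 1 array left out. The causes of these shifts were not tested. Dim members such as Dnaja1, Dnajb5 and Hspa4l lie near the offset, where changes are compressed.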
